A study of Mus musculus with 3 samples.

Results

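A set of 68 protein-coding genes stood far higher in 1 of 3 libraries of mouse regulatory T cells (Tregs), and its most abundant members encode proteins of saliva. The genes were chosen by their measured values: each had at least 30 expected counts in library 3, and its level there, in CPM (counts per 1000000 over gene rows) plus 0.03 CPM, was at least 10 times the higher of the levels in libraries 1 and 2. Histone, H2- and T cell receptor genes were left out. The rule kept 68 of the 11601 protein-coding genes with at least 30 counts in library 3, which is 0.586%, and 68 of 55536 genes in all. An expected count is the number of reads that a model assigned to a gene, and it need not be whole.

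The 3 libraries were prepared from polyadenylated RNA of inflammation-experienced Tregs, the CD4 T cells that hold immune responses in check under the transcription factor Foxp3. The labels give 1 donor mouse of 12 weeks, 1 biosample, and 3 libraries numbered as technical replicates of the same biological replicate, so all 3 form 1 group and no label separates them by genotype, treatment or age. No source used here gives the strain, the treatment, the sorting gate or any pooling of animals, and the sex of the donor was not collected. The comparison of library 3 with libraries 1 and 2 is therefore a comparison of libraries and of no condition, and because it chose the genes it is described here without a test.

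The major salivary glands of the mouse are the parotid, submandibular and sublingual glands. Serous acinar cells, which fill the parotid gland, make and store enzymes and antimicrobial proteins and release them into a watery fluid, while the granular ducts of the submandibular gland secrete tissue kallikreins and growth factors and mucous cells secrete mucins.

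Library 3 held 37728241 expected counts over genes, against 35592206 in library 1 and 31611422 in library 2. The 3 libraries were close in Foxp3 and in the sum of the Treg list, while single genes of the list differed more. Ctla4, for example, was at 345 CPM in library 3, 376 in library 1 and 262 in library 2. Foxp3 had 3849 counts in library 3, 3636 in library 1 and 3243 in library 2, and the 8 genes of the Treg list summed to 4467 CPM in library 3, 4656 in library 1 and 4331 in library 2. Mitochondrial genes took 1.68% of the gene counts of library 3, 1.32% of those of library 1 and 1.42% of those of library 2.

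The 68 genes together made up 3.56% of all gene counts in library 3 (Wilson interval at 95% confidence, 3.56% to 3.57%), against 0.00103% in library 1 (0.000934% to 0.00115%) and 0.00126% in library 2 (0.00114% to 0.00139%). These intervals cover counting error only, since reads without molecular identifiers are not independent molecules. The sums were 368 counts over the 68 genes in library 1 and 399 in library 2. In bulk RNA, fewer cells of a type and less RNA per cell cannot be told apart, so a share of counts is not a share of cells.

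The name of the set, gland transcripts seen in library 3 only, holds in part. Of the 68 genes, 21 had 0 counts in libraries 1 and 2, and 47 had a count above 0 in at least 1 of them. In 65 genes neither of those libraries exceeded 12 counts. The exceptions were Bpifa2, Amy1 and Dnase1, with up to 182 counts. Only 24 of the 68 genes belonged to any of 25 lists of gland and cell type genes, and these lists were drawn up with earlier results of the data known.

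The same rule turned to library 1 kept 31 of 11733 genes, which is 0.264%, and turned to library 2 it kept 17 of 11265, which is 0.151%. Those sets differ from the library 3 set in level. The highest gene of the library 1 set had 98 counts and the set took 0.00438% of that library, and the highest gene of the library 2 set had 98.8 counts and the set took 0.00258%. In library 3, by contrast, 31 of the 68 genes had at least 100 counts, 12 had at least 1000, 8 had at least 10000 and 3 had at least 100000. The median member had 89.05 counts in library 3, 1 in library 1 and 0 in library 2. The other 37 members had under 100 counts, a range that the sets of libraries 1 and 2 also cover.

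**Figure D1:**
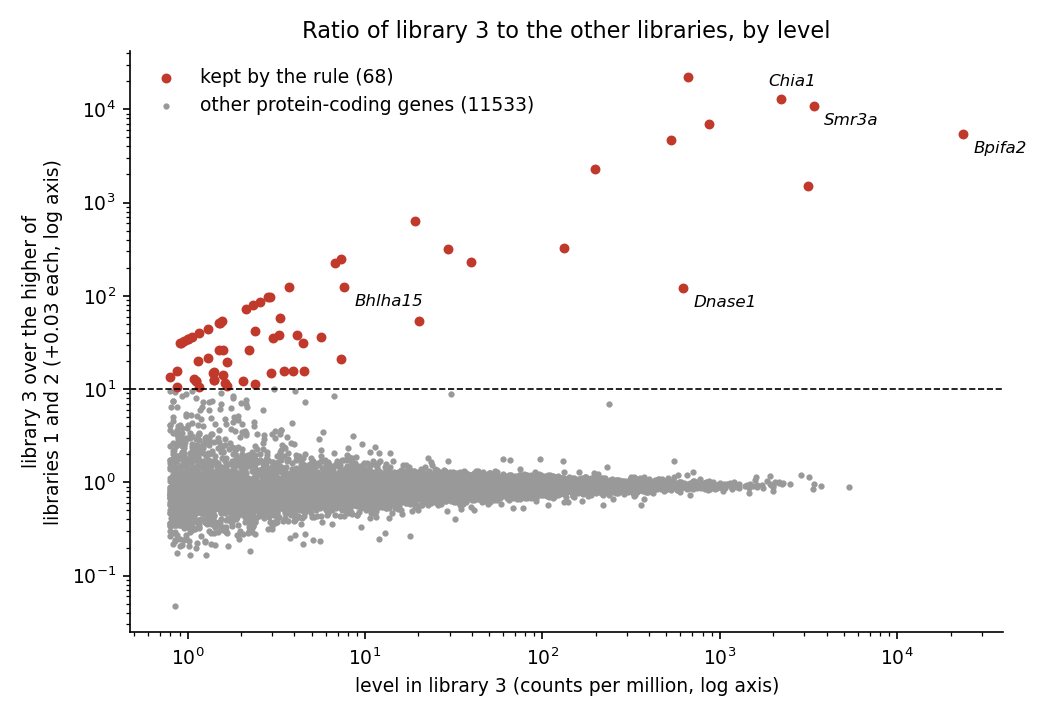
Ratio of the level in library 3 to the higher level in libraries 1 and 2 (vertical, log axis, 0.03 CPM added to each) against the level in library 3 in CPM (horizontal, log axis). Each point is 1 of 11601 protein-coding genes, red for the 68 kept by the rule and grey for the others, and the dashed line is the fold of 10 used by the rule. The red points at the upper right are the abundant salivary genes, with Bpifa2 farthest right, while the red points at the left lie among genes near the minimum of 30 counts.

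The rule's edge was crowded at low counts. Just inside it were Sdc1 with a ratio of 10.5 and counts of 44 in library 3, 3 in library 1 and 1 in library 2, Olfr525 with a ratio of 10.5, and Prss8 with a ratio of 10.9. Just outside were Ppp1r1b at 9.99, Nupr1 at 9.59 and Tcim at 9.57. Nupr1 had 152 counts in library 3, 14 in library 1 and 6 in library 2. Of genes with at least 1000 counts, chosen after their values were seen, 2 fell between a ratio of 5 and the fold of 10. Ggh, the lysosomal and secreted gamma-glutamyl hydrolase, had 8968 counts in library 3, 1232 in library 1 and 853 in library 2, a ratio of 6.86. Zc3h11a had 1151 counts in library 3, 122 in library 1 and 0 in library 2, a ratio of 8.80.

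Secreted proteins made up the bulk of the signal. By the role assigned to each gene, 25 members encode secreted proteins and took 97.9% of the members' counts in library 3, with a median of 723 counts. The 18 membrane proteins took 0.127% with a median of 61.5 counts, the 14 intracellular proteins 0.0684% with a median of 55.2, and the 6 transcription factors 0.0463% with a median of 57.8. The remaining 5 members, whose role was not assigned, took 1.89%, nearly all of it from 2310057J18Rik.

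The most abundant member was Bpifa2, the parotid secretory protein, a lipid-binding relative of bactericidal/permeability-increasing protein (mm10 chromosome 2, 154008265 to 154016079). It had 891348 expected counts in library 3, against 45 in library 1 and 136 in library 2. Relative to the gene totals, library 3 was 5491-fold higher than library 2, the higher of the other libraries. Bpifa2 alone took 2.36% of the gene counts of library 3. On the length-corrected TPM scale (transcripts per 1000000) it reached 39890 TPM there, and 0 genes of any biotype had a higher TPM in that library. The fold depends on the table: in the second deposited table, counted against annotation M4, Bpifa2 was 16.0-fold higher in library 3 than in library 2.

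The other members from the parotid list are also secreted by serous salivary cells. Amy1, the salivary amylase that cuts starch (chromosome 3, 113555710 to 113606699), had 118645 counts in library 3, 39.7 in library 1 and 65.8 in library 2, a 1511-fold difference from the higher of those, or 85.5-fold in M4 counts. Car6, the carbonic anhydrase secreted into saliva, had 32805 counts in library 3 and 3 in each of libraries 1 and 2. Dnase1, a secreted endonuclease, had 23548 counts in library 3, 182 in library 1 and 95.2 in library 2, a 122-fold difference, or 22.04-fold in M4 counts. In each of these genes library 3 stood far above both other libraries, which themselves differed, Bpifa2 and Amy1 being higher in library 2 and Dnase1 in library 1. The proline-rich proteins of saliva were much lower: Prpmp5 had 723 counts in library 3 and Prb1 141, and neither had a count in libraries 1 and 2. Prh1, another proline-rich protein gene and the last of the 7 genes of the parotid list, had 0 counts in all 3 libraries.

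The set also held secretory genes from the lists of other glands and of serous glands in general. Smr3a, an androgen-regulated protein of the submaxillary (submandibular) gland (chromosome 5, 88002549 to 88008534), was the second most abundant member with 127418 counts in library 3, 10 in library 1 and 7 in library 2. Chia1, the acidic mammalian chitinase (chromosome 3, 106113229 to 106132120), had 83257 counts in library 3, 5 in library 1 and 4 in library 2. Pip, the prolactin-inducible protein of several exocrine fluids (chromosome 6, 41847535 to 41852065), had 19961 counts in library 3, 3 in library 1 and 2 in library 2. Smr3a was 12020-fold and Chia1 15709-fold above the higher of the other 2 libraries in expected counts. In M4 counts the values were far smaller, at 894 in library 3 and 3 in each other library for Smr3a, and at 2884, 3 and 2 in libraries 3, 1 and 2 for Chia1. Lpo, the peroxidase of saliva and milk, had 760 counts in library 3, 1 in library 1 and 11 in library 2.

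Per length, the order of the abundant members differed from the order by counts. In library 3, Bpifa2 at 39890 TPM was followed by Smr3a at 9030 TPM, Amy1 at 3001, Chia1 at 2119, Pip at 1537, Car6 at 1210, Dnase1 at 892, 2310057J18Rik at 874, Cst10 at 467 and Crisp1 at 153 TPM. Pip, a short transcript, thus stood above Car6 by TPM and below it by count. The 68 genes took 5.95% of the TPM of library 3, and Bpifa2 alone 3.99%.

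**Figure D2:**
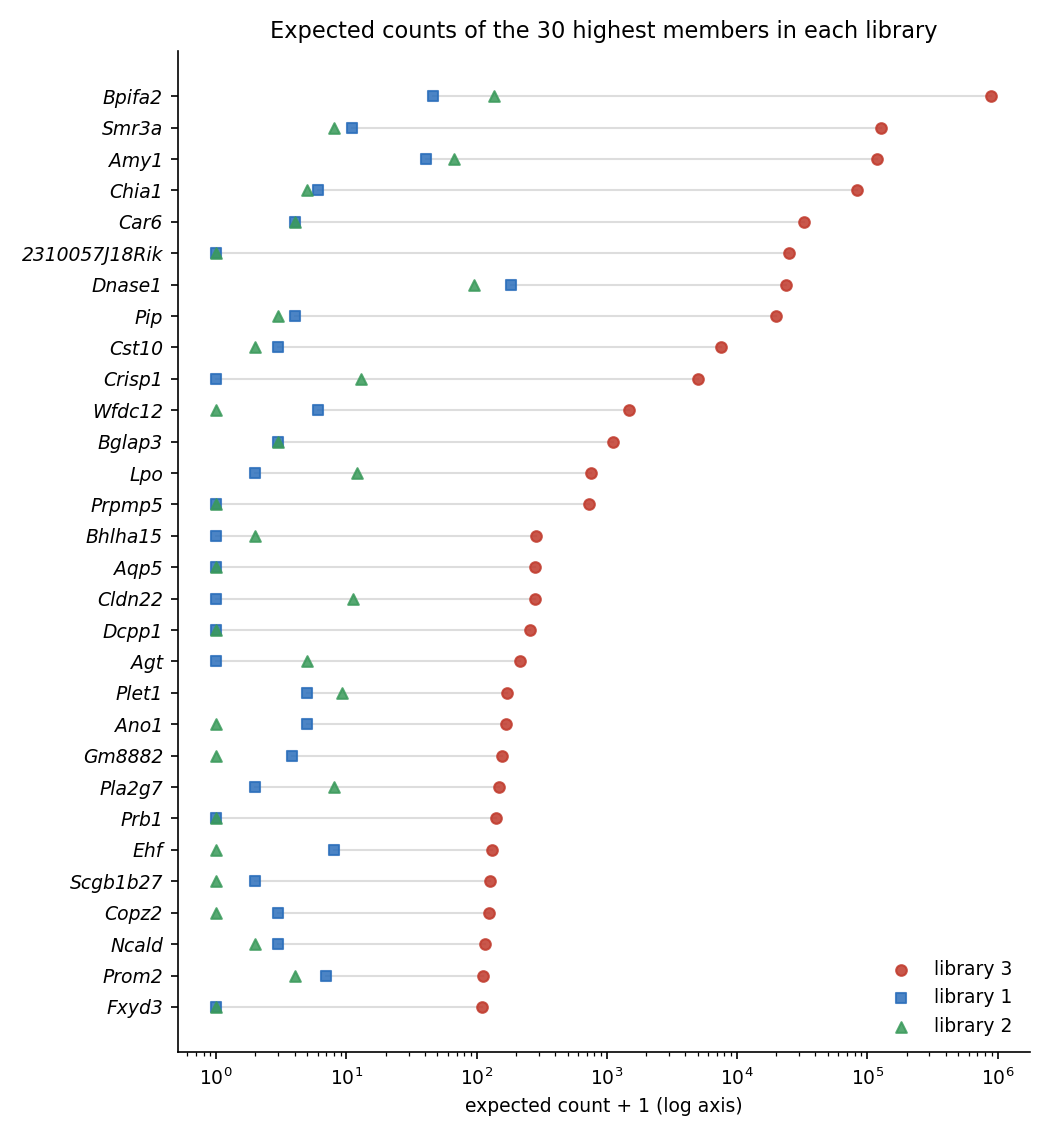
Expected counts plus 1 (horizontal, log axis) of the 30 members with the most counts in library 3, 1 row per gene, with a red circle for library 3, a blue square for library 1 and a green triangle for library 2. The 10 highest members reach from 5023 to 891348 counts in library 3, and in every row shown the red circle stands far to the right of both other symbols.

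Other secreted members belong to protein families found in glands and elsewhere. Cst10, a cystatin (an inhibitor of cysteine proteases), had 7463 counts in library 3, 2 in library 1 and 1 in library 2. Crisp1, a cysteine-rich secretory protein best known from the epididymis, had 5023 counts in library 3, 0 in library 1 and 12 in library 2. Wfdc12, a whey acidic protein family protease inhibitor, had 1485, 5 and 0 counts in libraries 3, 1 and 2. Both osteocalcin-related genes Bglap3 and Bglap2 were kept, with 1105 and 34.5 counts in library 3. These neighbours resemble each other in sequence, so reads may have been split between them. The secretoglobin genes Scgb1b27 and Scgb2b27, which encode subunits of androgen-binding protein, had 125 and 80 counts in library 3, against 1 and 0 in library 1 and 0 in library 2 for both. The hormone precursor Agt (angiotensinogen) had 214 counts in library 3, 0 in library 1 and 4 in library 2, and Ttr, the thyroxine and retinol carrier, had 84, 2 and 0.

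The gene 2310057J18Rik (chromosome 10, 28972288 to 28986303), to which no role was assigned here, was the sixth most abundant member. It had 24998 counts in library 3 and 0 in both other libraries. With a floor of 3 counts per library for a count of 0, library 3 was at least 6982-fold higher, or at least 580-fold higher in M4 counts. No other gene with 0 counts in both libraries 1 and 2 reached 1000 counts in library 3, the next being Prpmp5 at 723.

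The abundant genes were compared in their promoter sequence, since they were high together in library 3. RefSeq promoter windows of assembly GRCm38.p6 were found for 54 of the 68 members. Within the 100 bases before an annotated start, the letters TATAA (the core of a TATA box) occurred on the gene strand for 6 of the 10 most abundant members, for 15 of the 54 members, which is 27.8%, and for 2385 of 27025 genes of the table, which is 8.83%. Counting both strands gave 27.8% of members and 11.8% of all genes. The RefSeq starts can differ from the M21 starts. All 100 bases of the Chia1 window lie at or after the start of its leading M21 transcript, so its match may not be in a promoter, and 11 bases of the Bpifa2 window and 14 of the Pip window do so. The windows of the other 5 genes are printed below 5′ to 3′ in lower case, with TATAA in capitals, to show where the letters stand.
Bpifa2 (chr2:154008176-154008275, plus strand): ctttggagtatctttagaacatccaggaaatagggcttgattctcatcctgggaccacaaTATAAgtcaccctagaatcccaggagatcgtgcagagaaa
Smr3a (chr5:88002425-88002524, plus strand): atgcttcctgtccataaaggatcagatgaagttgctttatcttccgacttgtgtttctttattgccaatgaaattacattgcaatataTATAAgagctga
Amy1, downstream start (chr3:113574763-113574862, minus strand): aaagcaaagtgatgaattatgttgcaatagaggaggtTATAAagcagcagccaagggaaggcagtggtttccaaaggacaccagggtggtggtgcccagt
Pip (chr6:41847449-41847548, plus strand): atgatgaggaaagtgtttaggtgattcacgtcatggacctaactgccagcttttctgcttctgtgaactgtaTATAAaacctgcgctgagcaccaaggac
Crisp1 (chr17:40319208-40319307, minus strand): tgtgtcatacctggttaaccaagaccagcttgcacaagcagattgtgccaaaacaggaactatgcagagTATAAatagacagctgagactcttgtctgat
The letters stood at different distances from the RefSeq start. The first base of TATAA was 40 bases before it in Bpifa2, 12 in Smr3a, 63 in Amy1, 28 in Pip and 31 in Crisp1. The leading M21 transcript of Smr3a starts at 88002553, beyond the end of its window at 88002524, so these distances hold for the RefSeq starts only. The motif and the window were chosen after the sequences had been seen, so these shares are a description. The letters CATATG or CAGCTG, 2 forms of the E-box read by basic helix-loop-helix factors such as Bhlha15, occurred in the 300-base window of 8 of the 54 members, which is 14.8%, and of 22.1% of all genes in the table.

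The regulators among the members were present at low counts. Bhlha15 (also called Mist1), the basic helix-loop-helix factor that sets up the secretory apparatus of serous acinar cells and is also known from plasma cells, had 286 counts in library 3, 0 in library 1 and 1 in library 2. Sox10, a factor of salivary acinar and neural crest cells, had 59 counts in library 3 and 0 in both others. Ehf, an epithelial ETS factor, had 131 counts in library 3, 7 in library 1 and 0 in library 2. The other members of this role were Pax9 with 56.7 counts in library 3, Klf15 with 49 and Irx2 with 41. In all, 3 of 13 genes of the list of gland transcription factors were kept, against 0.586% of protein-coding genes with at least 30 counts. The remaining 10 ranged from Etv1, with 220 counts in library 3, 52 in library 1 and 52.3 in library 2, down to Ascl3 with 5 counts in library 3, 5 in library 1 and 0 in library 2.

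A few genes of channels and channel partners that act in fluid secretion were among the members. Aqp5, the apical water channel of acinar cells, had 278 counts in library 3 and 0 in both others. Ano1, the calcium-activated chloride channel that drives fluid secretion, had 168 counts in library 3, 4 in library 1 and 0 in library 2. Lrrc26, an auxiliary subunit of the BK potassium channel, had 91, 1 and 0 counts in libraries 3, 1 and 2, and Fxyd3, a regulator of the sodium pump, was counted 110 times in library 3 and not in the other libraries. Of the list of 15 genes of acinar fluid secretion and exocytosis, 2 were kept, Aqp5 and Ano1. The share over all protein-coding genes with at least 30 counts in library 3 was 0.586%. Lrrc26 and Fxyd3 are not in that list. Among those not kept were the BK channel gene Kcnma1 with 26, 16 and 0 counts in libraries 3, 1 and 2, Chrm3 with 60, 5 and 53, and Cldn10 with 117, 36 and 18. Several of the others were abundant in every library. The potassium channel gene Kcnn4 had 12361 counts in library 3, 12072 in library 1 and 11566 in library 2.

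Of the list of secretory pathway genes, which act in the endoplasmic reticulum and in protein export, 0 of 15 were kept, a count that the background share of 0.586% also gives. The list summed to 2179 CPM in library 3, 2242 in library 1 and 2183 in library 2. The chaperone gene Hspa5 had 25507 counts in library 3, 24822 in library 1 and 20704 in library 2. The smaller Fkbp11, a chaperone gene of secretory cells, had 66 counts in library 3, 16.1 in library 1 and 14 in library 2.

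The epithelial genes kept by the rule appeared at the same low level as the channels. Of the 12 genes of the epithelial list, 3 were kept, against the background share of 0.586%. Krt8, an intermediate filament keratin, had 90.1 counts in library 3, 5 in library 1 and 5.8 in library 2. Cldn3, a tight junction protein, had 33, 1 and 0, and Prom2, a membrane protrusion protein, had 111, 6 and 3. The keratin partner Krt18 had 172 counts in library 3, 80 in library 1 and 9 in library 2 and was not kept. Epcam was abundant in all, with 1528 counts in library 3, 1238 in library 1 and 853 in library 2.

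The question which gland the set resembles was put to lists of genes for each gland. Of the parotid secretory list 6 of 7 genes were kept, of the shared serous list 3 of 8, of the sublingual list 2 of 4 and of the submandibular list 2 of 20. None was kept of 7 lacrimal, 22 pancreatic acinar, 9 mammary, 10 stomach, 8 airway and nasal or 4 thyroid genes. The lists are short and of unequal length, and several of their genes are made by more than 1 gland, so these counts carry no test. The background share is the 0.586% given above, over protein-coding genes with at least 30 counts in library 3. The lists were not limited to such genes. Every parotid and every sublingual gene with at least 30 counts in library 3 was kept, so the share of kept genes does not rank these 2 lists. Those not kept were Prh1 with 0, Muc19 with 3 and Dcpp2 with 9.11 counts. The rule could not keep a gene under 30 counts in library 3. The highest count there was 2 in the lacrimal, 27 in the mammary, 29 in the stomach and 18 in the airway and nasal list. Those lists could therefore give only 0. Cela1, with 77 counts, was the only pancreatic gene to reach 30. In the submandibular list only Smr3a, Egf, Prol1 and Klk1b27 did so. At most 3 counts were seen for 15 of the 20 submandibular and 15 of the 22 pancreatic genes.

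**Figure D3:**
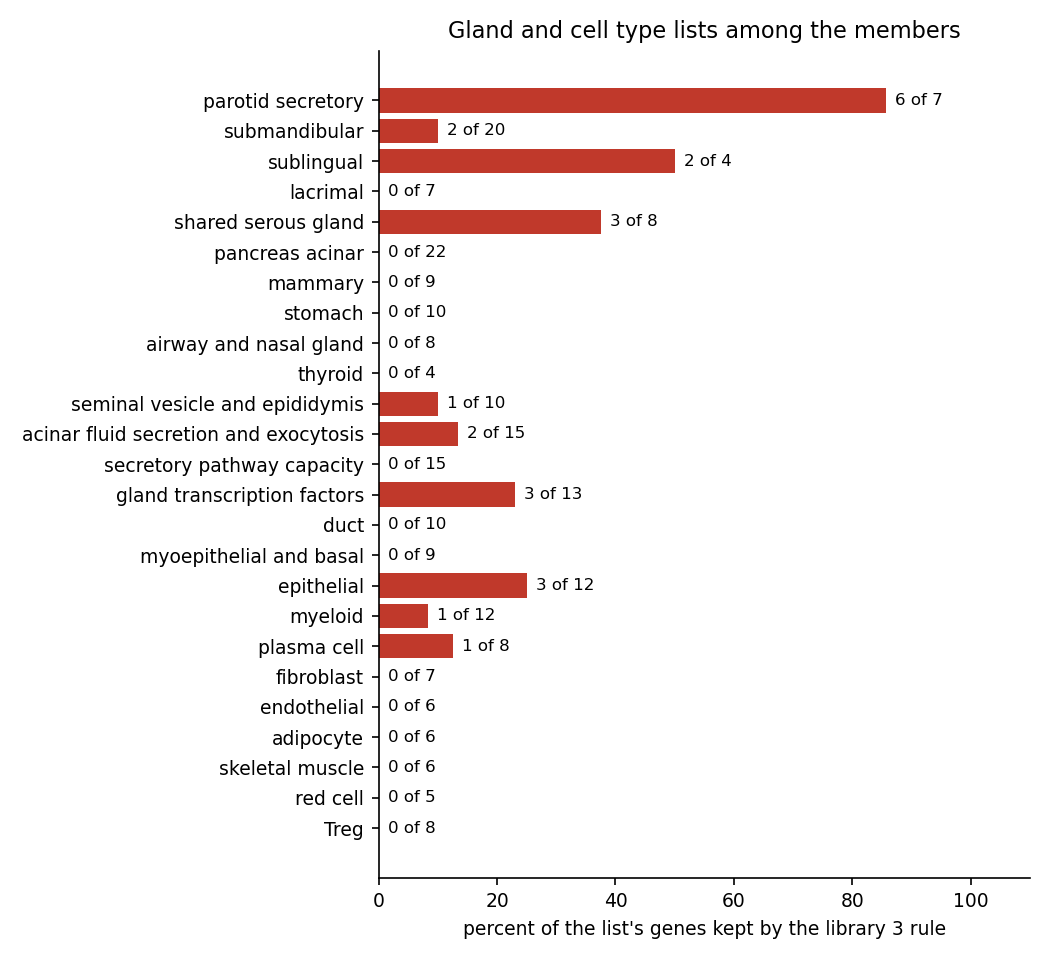
Percent of the genes of each of 25 lists that the rule kept (horizontal), 1 bar per list, with the number kept of the number found beside it. The parotid list has the highest share, at 6 of 7 genes, and the lists for lacrimal gland, pancreas, duct, myoepithelial cells and Tregs have none.

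The submandibular list separated Smr3a from the granular duct products. Smr3a and its neighbour Prol1 were kept, Prol1 with 96 counts in library 3 and 0 in both others. Smr2, a further gene of this family, had 0 counts in every library. The 14 tissue kallikrein genes of the list summed to 52 counts in library 3, 78.4 in library 1 and 38.2 in library 2, and 8 of them had 0 counts in library 3. Without Klk1b27 the sums were 6.21, 28.7 and 6.23. The growth factor gene Egf had 126 counts in library 3, 52 in library 1 and 47 in library 2. The duct keratins were likewise low, with 4.07 counts in library 3 for Krt7 and 5 for Krt19. Of the duct list 0 of 10 genes were kept, a count that the background share of 0.586% also gives.

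The sublingual list gave the demilune and parotid proteins, named for the serous demilunes of the sublingual gland and for the parotid. Dcpp1 had 254 counts in library 3 and Dcpp3 56.5, with 0 in both other libraries for each. Dcpp2, which overlaps Dcpp1 on the same strand, had 9.11 counts in library 3, 2 in library 1 and 0 in library 2, and these near-identical genes are uncertain because reads may have been split between them. The mucin gene Muc19 had 3 counts in library 3, 3 in library 1 and 9 in library 2. In the shared serous list, Pigr, the receptor that carries IgA across epithelia, just missed the fold with 252 counts in library 3, 27 in library 1 and 3 in library 2, a ratio of 8.51. Ltf (lactoferrin) had 8 counts in library 3, 17 in library 1 and 1 in library 2, and Dmbt1 had 1, 4 and 0.

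The pancreas makes an amylase of its own and shares Bhlha15 with serous glands, but its genes were low. Amy2a5, a pancreatic amylase gene, had 7 counts in library 3, 12.5 in library 1 and 0 in library 2. The highest gene of the 22 in library 3 was Cela1, an elastase, with 77 counts there, 146 in library 1 and 102 in library 2. Cpa1 and Cel had 0 counts in library 3. Crisp1 was the single gene kept from the list for seminal vesicle and epididymis.

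Markers of other cell types were also counted, to be read beside the background share of 0.586%. In the myeloid list 1 of 12 genes was kept, the complement gene C1qb with 34 counts in library 3 and 0 in both others, while C1qa had 41, 22 and 1 and C1qc 22, 16 and 35 in libraries 3, 1 and 2. The myeloid genes summed to 6.95 CPM in library 3, 4.69 in library 1 and 2.94 in library 2, and Cd14 and Fcgr1 were at 0 in all. In the plasma cell list 1 of 8 genes was kept, Sdc1. Jchain, which joins IgA, had 11 counts in library 3, 58 in library 1 and 0 in library 2, and Prdm1, which Tregs also express, had 2910, 2389 and 1923. None was kept of the fibroblast, endothelial, adipocyte, skeletal muscle, red cell or myoepithelial lists, which the background share also gives for lists this short. No adipocyte gene exceeded 22 counts in library 3 and no skeletal muscle gene 23.7, so those lists could give only 0. The part of such cells in the result was not tested.

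The model assigned most reads of the abundant genes to 1 transcript. In library 3 the leading transcript took at least 90% of the gene's TPM in 6 of the 10 most abundant members, among them Bpifa2 with 99.35% and Chia1 with 99.90%. The lowest lead was that of the leading Car6 transcript at 47.3%. Since transcripts of a gene have reads in common, each such share is an estimate of the model.

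In Amy1 the transcript split concerned the start of the gene. Mouse Amy1 is known for a strong promoter used in the parotid gland and a weaker one used in liver and other tissues. Which of these promoters each transcript below starts from was not tested, so the leading transcript is not to be read as the parotid form. The transcript that starts at 113574762 on the minus strand, with a first exon of 159 bases, took 86.3% of Amy1 TPM in library 3, and the one that starts 3068 bases farther upstream, with a first exon of 130 bases, took 5.96%. Of the 11 exons of each, 9 were identical, and the last exon of the upstream-start transcript was 243 bases longer, so the split rests on the 3′ end as well as on the first exon. The downstream-start transcript had 107389 counts in library 3, 3.92 in library 1 and 28.1 in library 2. The upstream-start transcript had 8336 counts in library 3, 24.7 in library 1 and 0 in library 2. In library 1 the upstream-start transcript took 54.7% of Amy1 TPM, the largest share there. Another transcript, which reaches farthest upstream, to 113606699, had 16.1 counts in library 3, 8.77 in library 1 and 33.7 in library 2. Of the 65.8 Amy1 counts of library 2, the largest part thus lay on a transcript that held 0.01% of Amy1 TPM in library 3. That transcript overlaps Rnpc3 on the same strand by 1633 bases of the genome, so reads of Rnpc3 cannot be told apart from it there.

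Dnase1 also differed between libraries in its transcripts. The leading coding transcript, with bounds 4037031 and 4040024 on chromosome 16, had 19179 counts in library 3 and 0 in both other libraries. A retained-intron transcript of 2782 bases had 240 counts in library 3, 158 in library 1 and 74.0 in library 2. The counts of Dnase1 in libraries 1 and 2 were therefore assigned mainly to a transcript that took 0.41% of the gene's TPM in library 3. Dnase1 overlaps Trap1 on the other strand, and no source used here states whether the counting used strand.

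The levels left in libraries 1 and 2 differed between members, in an order that depends on the table. Set to 1000000 in library 3, the level of Bpifa2 in M21 expected counts stood at 53.5 in library 1 and 182 in library 2, Smr3a at 83.2 and 65.6, Chia1 at 63.7 and 57.3, and Car6 at 96.9 and 109. Pip stood at 159 in library 1 and 120 in library 2. These 5 genes lay within the range from 53.5 to 182. Amy1 was higher, at 354 and 662, and Dnase1 far higher, at 8177 and 4825. 2310057J18Rik, with 24998 counts in library 3, was at 0 in both. Over all 68 genes the mean of both libraries was 322 for each 1000000 in library 3. In M4 counts this mean, over the 50 genes kept there, was 11182. Bpifa2 then stood at 12527 in library 1 and 62471 in library 2, Dnase1 at 45372 and 28250, and Amy1 at 10443 and 11699, so that in library 2 Bpifa2 was above Dnase1 and not below it.

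**Figure D4:**
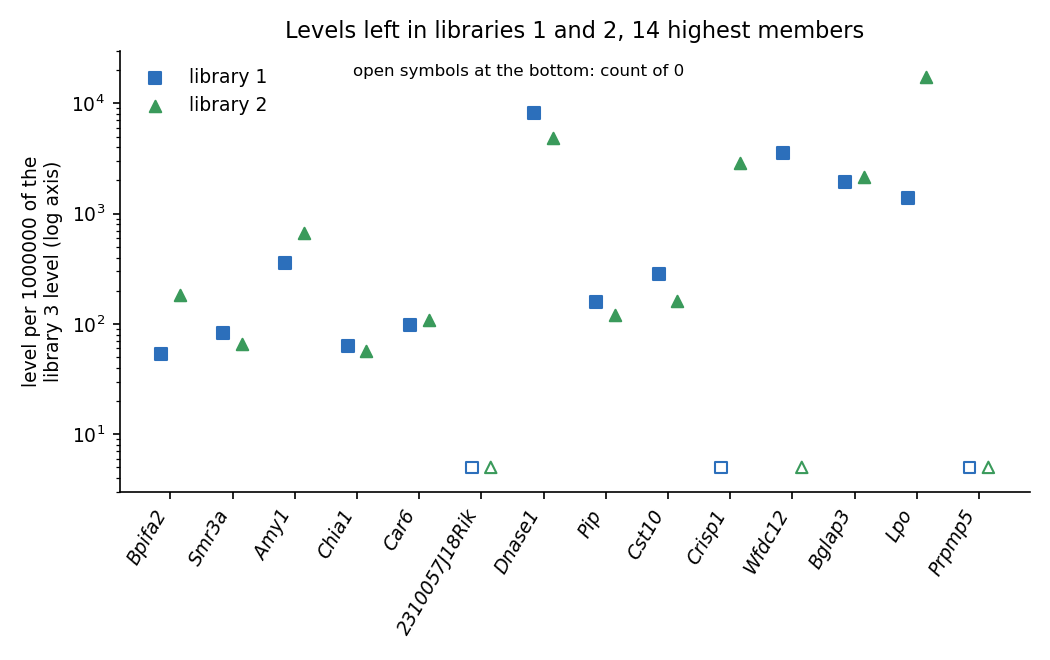
Level by M21 expected counts in library 1 (blue squares) and library 2 (green triangles) of the 14 most abundant members, for a level of 1000000 of the same gene in library 3 (vertical, log axis). Open symbols at the bottom mark a count of 0. Bpifa2, Smr3a, Chia1, Car6 and Pip lie between 53.5 and 182. Amy1, Dnase1, Cst10, Crisp1, Wfdc12, Bglap3 and Lpo lie above that range in at least 1 library, with Lpo highest at 17274 in library 2. 2310057J18Rik and Prpmp5 have no count in either library.

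Some members are neighbours in the genome. Within gaps of 500 kb, 19 of the 68 fell into 9 groups, most of which join members of a gene family. The proline-rich protein genes Prb1, Prpmp5 and Gm8882 lie within 157340 bases of chromosome 6, and Smr3a and Prol1 within 326266 bases of chromosome 5. Other family groups were Dcpp1 with Dcpp3 on chromosome 17, Bglap3 with Bglap2 on chromosome 3, and Scgb2b27 with Scgb1b27 and the olfactory receptor genes Olfr522 with Olfr525 on chromosome 7. Aqp5 with Gpd1, Ndor1 with Lrrc26, and Astl with Prom2 are unrelated neighbours. The members came from 20 chromosomes in all, and 30 of the 68 overlapped another annotated gene.

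The lower part of the set was mixed. Cldn22, a claudin of tight junctions that overlaps Wwc2 on the other strand, had 277 counts in library 3, 0 in library 1 and 10.3 in library 2. Plet1, a surface protein of epithelial progenitors, had 170 counts in library 3, 4 in library 1 and 8.2 in library 2, and Pla2g7, a secreted enzyme that breaks down platelet-activating factor, had 148, 1 and 7. Gm8882, beside the proline-rich protein genes, had 155 counts in library 3, 2.85 in library 1 and 0 in library 2. Copz2, a subunit of the coat of Golgi vesicles, had 123 counts in library 3, 2 in library 1 and 0 in library 2, and Ncald, a neuronal calcium sensor, had 115, 2 and 1. In each of these genes both other libraries lay far below library 3, at 12 counts or fewer. Gpd1, Thrsp, Ppp1r3c and Ces1e, genes of glycerol, fat and glycogen metabolism, had 53, 60, 36 and 53 counts in library 3 and up to 3 in the other libraries. Olfr522 had 40 counts in library 3 and no count elsewhere. Gm37988 had 108 counts in library 3 and 0 in both others, but the authors' posterior standard deviation of its count was 38.2, it overlaps Lypla1 and Tcea1 on the same strand, and the other gene table held 0 counts for it. The 58 members below the 10 highest took 0.0239% of the gene counts of library 3, against 3.54% for the 10 highest.

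The M4 table held far smaller values for the abundant members. Bpifa2 had 1790 M4 counts in library 3, 22 in library 1 and 101 in library 2. The ratio of the M21 expected count to the M4 count of Bpifa2 was 498 in library 3, against 2.05 in library 1 and 1.35 in library 2. For Smr3a the ratio was 143 in library 3, 3.33 in library 1 and 2.33 in library 2, and for Amy1 it was 38.0, 1.24 and 1.99. Over 10520 genes with at least 30 counts in both tables the median ratio in library 3 was 2.19, and 2 genes exceeded Bpifa2. By M4 counts 1594 genes stood above Bpifa2 in library 3.

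The set as a whole kept its side in the M4 table at a lower share. The 65 members with an M4 row took 0.215% of M4 counts in library 3, 0.00208% in library 1 and 0.00286% in library 2. Amy1 was the highest there with 3123 M4 counts in library 3, 32 in library 1 and 33 in library 2. Prb1 was an exception, with 324 M4 counts in library 3 against an expected count of 141 there. The order of the members by abundance therefore rests on the table used, and the cause of the difference was not tested.

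**Figure D5:**
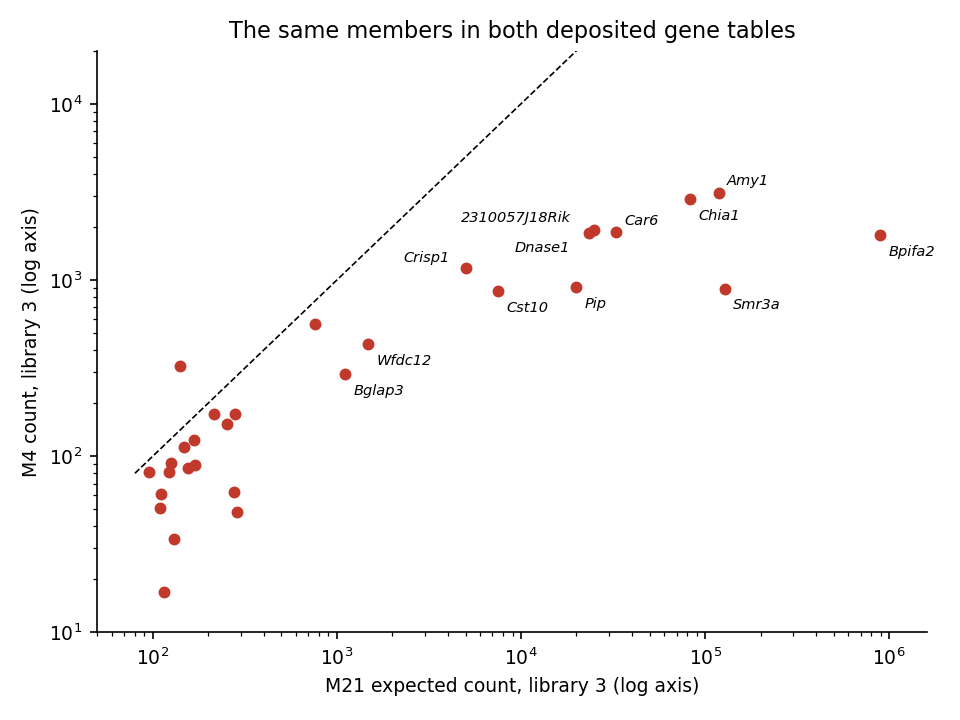
M4 counts in library 3 (vertical, log axis) against M21 expected counts in library 3 (horizontal, log axis) for the most abundant members with an M4 row. The dashed line marks equal values; the genes with most M21 counts lie farthest below it, with Bpifa2 at 891348 M21 and 1790 M4 counts.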

How the data were processed

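Gene tables of 3 libraries of polyadenylated RNA from 1 biosample were used as deposited. Per the file headers and the deposited note with each sample, the authors quantified genes and transcripts against GENCODE M21 on mm10. The deposited values are expected counts, with a posterior mean and SD of each count, TPM, lower and upper bounds of the TPM signal whose level is not stated, and the percent of a gene's TPM per transcript. A further deposited table held whole-number counts against annotation M4. The aligner, the counting program, the handling of duplicates and strand are not stated in any source used here.

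Expected counts were divided by the sum over the 55536 mouse gene rows. Rows of transfer RNAs and spike-ins, 0.218% of library 3 and 0.170% of libraries 1 and 2, were left out. Symbols, biotypes and coordinates came from the M21 annotation. The members, the lists and the alternatives were chosen with earlier results of these data known. Named were the 30 members with the most counts in library 3, all members in a list, 3 genes on each side of the fold of 10, and defining list genes outside the set, with a few further genes chosen after their values were seen. A count of 0 was set to a floor of 3 counts per library in folds. Promoter windows came from RefSeq, GRCm38.p6. Python 3.11.15, pandas 2.3.3 and scipy 1.17.1 were used, with R 4.3.3, edgeR 4.0.16 (TMM) and DESeq2 1.42.0 (size factors) for other scalings only, with no test. The rule was also run on simulated counts with counting noise only, in which some genes were changed by known folds in library 3. The changed genes started from at least 100 counts, so that run does not cover genes near 0 in libraries 1 and 2, as most members are. With 1 group and no independent measure of the contrast, no p-value was computed. Nothing states that the libraries came from separate animals, so differences between them may be technical.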

Additional observations from a re-analysis of the deposited data

Results flagged for a closer look

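Genes that do not code for protein were outside the comparison, and 11 of them passed the same rule in library 3. With 1 group of 3 libraries, no library was tested for standing apart within a group, and these genes are given as values.

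The lincRNA BC037156 (mm10 chromosome 5, 87908779 to 87914171), on the same strand of that chromosome as Smr3a, had 5148 counts in library 3, 0 in library 1 and 1 in library 2. The pseudogene Gm28661, a close copy of mitochondrial sequence, had 12740 counts in library 3, 636 in library 1 and 409 in library 2, so reads may have been split between it and the mitochondrial genome. The lincRNA 3110099E03Rik had 65 counts in library 3 and 0 in both others.

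Of immunoglobulin variable genes, Igkv6-13 had 62.7 counts in library 3, 1.03 in library 1 and 0 in library 2, Ighv5-6 had 47.98 in library 3 and 0 in both others, and Igkv6-17 had 34.5, 2 and 0 in libraries 3, 1 and 2. The pseudogene Gm5154, on chromosome 6 beside the proline-rich protein genes, had 34.7 counts in library 3, 2.15 in library 1 and 0 in library 2. Gm47004 had 46 counts in library 3 and 2 in each other library, and Gm16136 with 35, Gm43126 with 31.9 and Gm43844 with 31 counts in library 3 had 0 in both others.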

How the results depend on the processing

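Under 15 other settings the parotid list kept 6 of its genes in 14 and 5 in the M4 table, where Prpmp5 has no row. Several of these settings only loosen the rule and so could not lose a gene. They are the lower fold, the lower minimum, the smaller added value, any biotype, the families kept and 1 library left out. The count of 68 genes became 107 with a fold of 5, 168 with a minimum of 10 counts, 31 with a minimum of 100 counts, and 94 to 248 when library 1 or library 2 was left out. It ranged from 47 to 79 in the other settings, 72 with the scalings of edgeR and DESeq2 and 50 in M4 counts, of which 41 were shared with the 68. The share of 3.56% became 3.59% with a fold of 5, 5.95% in TPM, 0.216% in M4 counts, 3.61% with genes of any biotype and 3.57% to 3.59% without library 2 or 1. The level left in libraries 1 and 2, 322 for each 1000000 in library 3, became 1363 with a fold of 5, 283 with a fold of 20, 295 with a minimum of 100 counts, 299 with 0.1 added, 236 in TPM, 11182 in M4 counts, 749 with any biotype and 345 to 523 with 1 library left out. In all, 23 genes were kept under every setting; without library 3 the rule gives no value. The M4 cause was not tested. No paired analysis was possible because there is 1 group. Depth limits the 37 members under 100 counts, and technical replicates of 1 biosample cannot show how animals differ.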

Other observations

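The same rule turned to library 1 kept 3 of the 10 genes of the list for seminal vesicle and epididymis, at low counts, where it kept 0.264% of all genes it was applied to. Svs4, a major secretory protein of the seminal vesicle and the highest gene of that set, had 98 counts in library 1 and 0 in libraries 2 and 3. Svs5 had 55 counts in library 1 and Svs2 had 38, with 0 in both other libraries for each. These proteins form part of the seminal clot. Crisp1, the member of that list kept in library 3, had 0 counts in library 1. The source of these reads was not tested.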
